A study of Chlamydomonas reinhardtii with 16 samples.

Results

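The genes described here encode 8 enzymes of the Calvin cycle of *Chlamydomonas reinhardtii*, a unicellular green alga. They are GAP3, TPI1, FBP1, SEBP1, TRK1, RPI1, RPE1 and PRK1, and they leave out Rubisco and the aldolases. They were chosen by locus, and all 8 loci were found among the 17114 gene models of the files. All 8 had a mean of at least 1 FPKM and so belonged to the 12153 genes tested.

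The strain was dw15.1, grown in every culture in Tris-acetate-phosphate medium, whose acetate is a carbon source beside CO2. Days of 12 hr of light and nights of 12 hr had alternated for 48 hr when sampling began. Each of the 8 time points from ZT 0 to ZT 21 had 2 independent 50-mL cultures, A and B, where ZT counts the hours since the last dawn. The cultures at ZT 12 were still in light and those at ZT 0 still in darkness, because sampling preceded the switch. No time point differed in strain or medium, and the comparisons are between times of day. Sampling ran from ZT 0 to ZT 21, so culture age could change along with the time of day. An effect of age was not tested.

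The Calvin cycle fixes CO2 in the chloroplast with the ATP and NADPH that the light reactions make. Rubisco joins CO2 to ribulose bisphosphate, the product is phosphorylated and reduced to triose phosphate, and most of the triose phosphate is rearranged back to ribulose bisphosphate. In plants and green algae several of these enzymes are switched on in light by thioredoxin or held in a complex with the small protein CP12, so that transcript level is only one layer of their control.

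Values are FPKM, fragments per kilobase of transcript relative to all mapped fragments of the library, brought here to the same 75th percentile in every library. FPKM are relative to the rest of a library and per length, so levels can be set side by side between genes, but fewer copies of a transcript in a cell and more of all other RNA cannot be told apart. The libraries held from 5.87e+06 to 2.19e+07 fragments, with a median of 1.47e+07, and the shallowest was culture B at ZT 12. The 8 genes had between 277 fragments (RPE1 at ZT 12 in culture B) and 55893 fragments (TRK1 at ZT 0 in culture A) in a library. No gene model overlapped any of the 8. The nearest model, Cre12.g554850, lay 0 bases from PRK1, ranged from 3.6 to 26.7 FPKM, and had a Pearson correlation of -0.246 with PRK1 over the 16 libraries. Reads that match a near-identical copy elsewhere in the genome were placed at 1 site and could not be assigned with certainty.

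All 8 transcripts were abundant. Their mean levels placed them between the 105th (GAP3, 406 FPKM) and the 477th (FBP1, 75.9 FPKM) of the 17114 models. The difference between the highest and the lowest time point ran from 1.83-fold for TPI1 to 29.6-fold for RPE1. In both cultures each of the 8 genes had its highest value at the same time point, and likewise its lowest. The highest was at ZT 6 for GAP3, TPI1, SEBP1 and PRK1, at ZT 3 for FBP1, RPI1 and RPE1, and at ZT 0 for TRK1. In the main tests below, ZT 3 and ZT 6 were not called different for GAP3, TPI1 and PRK1. Nor were ZT 0 and ZT 3 for TRK1. With FPKM as deposited, without the scaling, TPI1 was instead highest at ZT 15 in both cultures and PRK1 at ZT 3 in culture B, and the other time points of highest and lowest values were unchanged. On the scale of FPKM + 1, the median of these folds was 10.3 for the 8 genes and 2.37 for the 12153 tested genes. The added 1 shrinks the folds of genes at low levels, and the 8 genes are abundant. This contrast, and the ranks among tested genes below, can therefore be overstated.

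**Figure D1:**
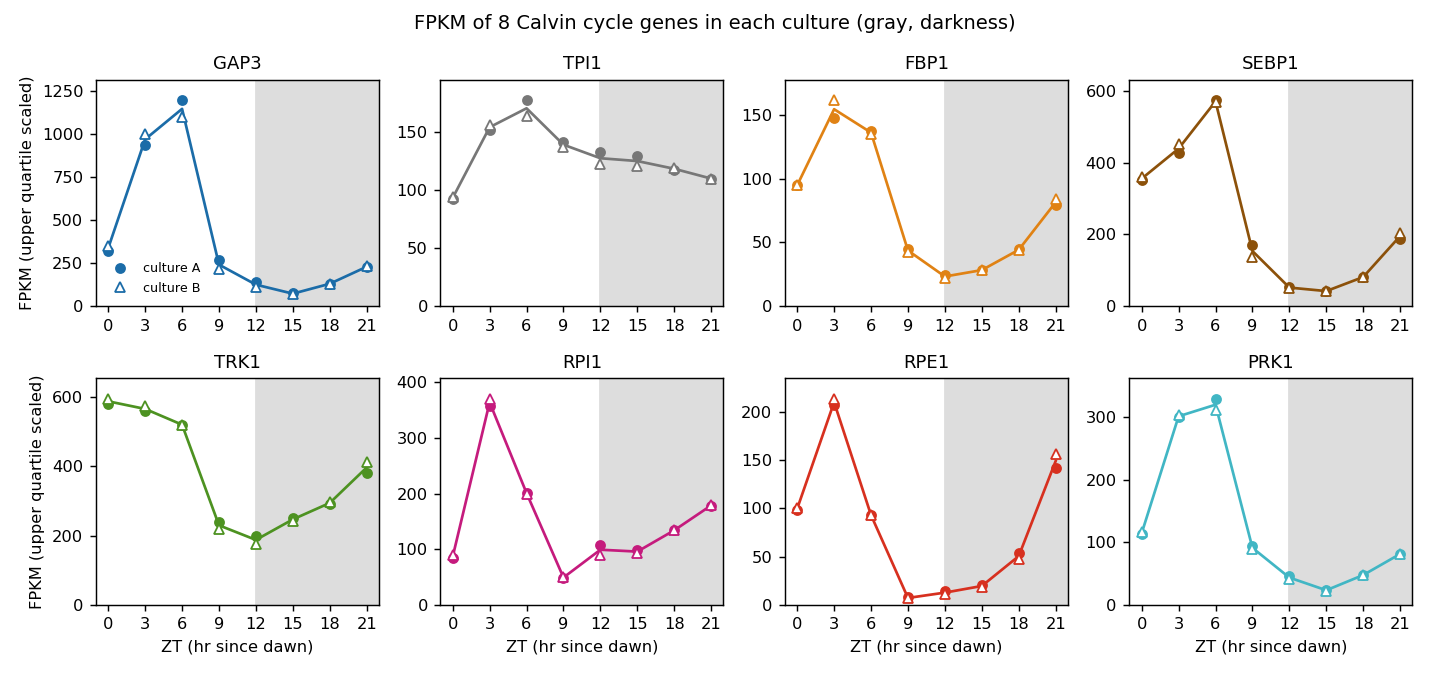
Upper-quartile-scaled FPKM (y axis, linear, from 0) against ZT in hours (x axis) for each of the 8 genes, with culture A as filled circles, culture B as open triangles, the line through the mean of the 2 cultures and the dark period in gray (the cultures at ZT 0 were also in darkness). GAP3, SEBP1 and PRK1 peaked at ZT 6 and were lowest at ZT 15, RPE1 and RPI1 were lowest at ZT 9, and TPI1 stayed between 92.8 and 177.5 FPKM (as deposited, it was highest at ZT 15).

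GAP3 (Cre01.g010900; genome version 4.3, chromosome 1, 1847707 to 1850327) encodes the glyceraldehyde phosphate dehydrogenase that uses NADPH to reduce the phosphorylated product of carbon fixation. From ZT 0 to ZT 21, culture A had 323, 935, 1195, 269, 139, 76.4, 129 and 224 FPKM. Culture B had 350.5, 1002, 1096, 213, 110.5, 68.5, 131 and 233 FPKM. The 4 cultures at ZT 3 and ZT 6 stood above all others. The mean was 1145 ± 70.3 FPKM at ZT 6 and 72.5 ± 5.54 FPKM at ZT 15 (SD, n = 2 each), a 15.8-fold difference, larger than that of 97.4% of tested genes. The spread between its cultures was widest at ZT 9, at 16.5% of the mean.

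TPI1 (Cre01.g029300; chromosome 1, 4158637 to 4160430) encodes triose phosphate isomerase, which interconverts the 2 triose phosphates and also serves glycolysis. Culture A had 92.8, 152, 177.5, 141, 133, 129.7, 118 and 110.0 FPKM from ZT 0 to ZT 21, and culture B had 93.9, 156, 164, 137, 123, 121, 119 and 110.0 FPKM. Both cultures were lowest at ZT 0 and jumped by ZT 3. After ZT 6 the scaled means declined slowly, whereas the means as deposited were 170.1, 173, 174.5 and 181 FPKM from ZT 6 to ZT 15, so the course of TPI1 after ZT 6 turns on the scaling. The mean was 171 ± 9.73 FPKM at ZT 6 and 93.3 ± 0.754 FPKM at ZT 0 (SD, n = 2 each). This fold exceeded that of 28.03% of tested genes, the only one of the 8 below the median of all tested genes.

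The bisphosphatases FBP1 and SEBP1 remove a phosphate from fructose bisphosphate and sedoheptulose bisphosphate, steps that are irreversible in the cell and that thioredoxin activates in light. FBP1 (Cre12.g510650; chromosome 12, 3118435 to 3121741) had 95.0, 148, 138, 44.9, 24.7, 28.5, 44.7 and 79.1 FPKM in culture A from ZT 0 to ZT 21. In culture B it had 94.8, 162, 135, 42.5, 21.8, 28.1, 43.8 and 84.0 FPKM. It was highest at ZT 3 (155 ± 9.87 FPKM) and lowest at ZT 12 (23.3 ± 2.04 FPKM), a 6.64-fold difference, and both cultures were higher again by ZT 18.

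SEBP1 (Cre03.g185550; chromosome 3, 4474616 to 4477227) had 350.4, 426, 574, 170.2, 52.4, 42.7, 81.5 and 188 FPKM in culture A, and 360.4, 452, 568, 137, 51.1, 41.2, 80.9 and 203 FPKM in culture B. It peaked at ZT 6 (571 ± 4.29 FPKM) and was lowest at ZT 15 (42.0 ± 1.06 FPKM), a 13.6-fold difference. Before lights on it had already reached a level above that of any culture from ZT 9 to ZT 21. In every library SEBP1 was above FBP1, with a ratio from 1.47 at ZT 15 to 4.21 at ZT 6, both in culture B.

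TRK1 (Cre02.g080200; chromosome 2, 926464 to 931035) encodes transketolase, which moves short carbon units between sugar phosphates and is shared with the pentose phosphate pathway. Culture A had 581, 558, 520.2, 240.5, 199.5, 250.4, 292 and 380.3 FPKM from ZT 0 to ZT 21, and culture B had 594, 573, 519.8, 218, 175, 243, 296 and 413 FPKM. TRK1 was the one gene of the 8 that was highest just before dawn, but ZT 3 was close. The difference between ZT 0 and ZT 3 was not called (limma, adjusted p = 0.518), and its direction turned with scaling to the median. The mean was 588 ± 9.63 FPKM at ZT 0 and 187 ± 17.2 FPKM at ZT 12 (SD, n = 2 each), 3.14-fold apart.

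RPI1 and RPE1 make ribulose phosphate from ribose phosphate and from xylulose phosphate, the last step before the kinase. RPI1 (Cre03.g187450; chromosome 3, 4648021 to 4649470), the isomerase, had 83.6, 358, 202, 47.7, 108, 98.9, 134 and 178 FPKM in culture A. In culture B it had 89.2, 370.0, 199.8, 50.3, 90.01, 92.3, 134 and 179 FPKM. Read as a cycle that joins ZT 21 to ZT 0, its course had 2 rises and 2 falls. It went up to ZT 21, was down at ZT 0, and was highest at ZT 3 (364 ± 8.70 FPKM). The lowest level was at ZT 9 (49.0 ± 1.83 FPKM), and the highest and lowest were 7.43-fold apart.

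RPE1 (Cre12.g511900; chromosome 12, 3224908 to 3227716), the epimerase, had 98.4, 207, 93.0, 7.57, 14.3, 20.9, 53.4 and 142 FPKM in culture A, and 100.9, 214, 93.1, 6.63, 10.99, 18.1, 47.7 and 156 FPKM in culture B. It shared with RPI1 the high at ZT 3, the low at ZT 9 and the dip at ZT 0. The mean was 210 ± 4.76 FPKM at ZT 3 and 7.10 ± 0.667 FPKM at ZT 9 (SD, n = 2 each), and the 29.6-fold difference exceeded that of 98.9% of tested genes. Its cultures differed most at ZT 12, by an SD of 18.4% of the mean, where culture B had the fewest fragments of any value here.

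PRK1 (Cre12.g554800; chromosome 12, 8448962 to 8452595) encodes phosphoribulokinase, which spends ATP to remake the CO2 acceptor and is held with GAP3 protein by CP12 in the dark. Culture A had 112, 299, 329, 93.1, 45.2, 23.8, 47.0 and 81.0 FPKM from ZT 0 to ZT 21, and culture B had 116, 303, 310.2, 88.7, 41.7, 22.6, 48.0 and 81.4 FPKM. The cultures at ZT 3 and ZT 6 stood above all others, as for GAP3. The mean was 319 ± 13.03 FPKM at ZT 6 and 23.2 ± 0.861 FPKM at ZT 15 (SD, n = 2 each), 13.8-fold apart.

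The order of the 8 levels changed through the day. TRK1 had the highest level in both cultures at ZT 0 and from ZT 12 to ZT 21, and GAP3 at ZT 3 and ZT 6. The highest gene exceeded the lowest by 35.6-fold and 33.0-fold in cultures A and B at ZT 9, when RPE1 was lowest, and by 4.81-fold and 5.07-fold at ZT 21, when the levels lay closest. The full order was the same in both cultures at ZT 0, ZT 6 and ZT 15. Neighbors in the order that the 2 cultures ranked differently were TPI1 and FBP1 at ZT 3, GAP3 with TRK1 and SEBP1 with TPI1 at ZT 9, GAP3 and TPI1 at ZT 12, RPE1 and PRK1 at ZT 18, and FBP1 and PRK1 at ZT 21.

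**Figure D2:**
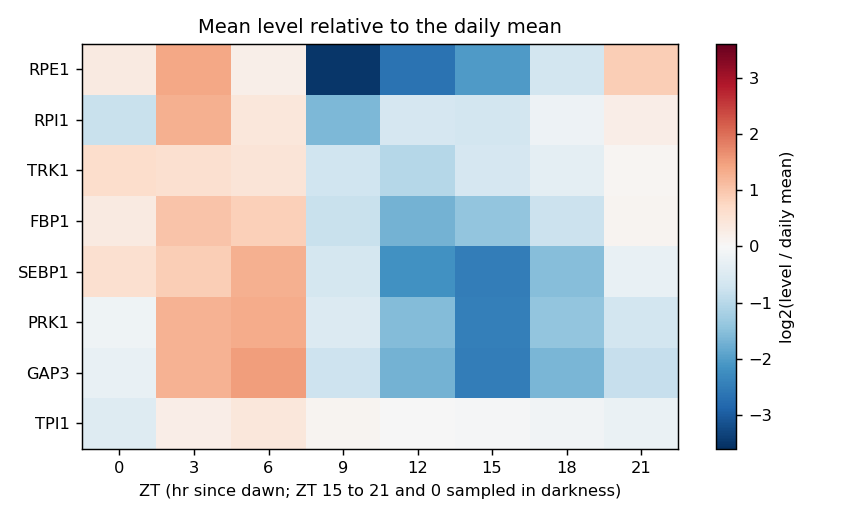
Mean level of each gene (rows) at each ZT (columns, in hours) as the log2 ratio to that gene's own mean over the 8 time points, red above and blue below. RPE1 at ZT 9, at 0.0885 of its daily mean, is the darkest cell, ZT 3 and ZT 6 are above the mean for all 8 genes (RPE1 at ZT 6 is below it, at 0.956, with FPKM as deposited), and TPI1 stays between 0.719 and 1.31 of its mean.

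Set against its own daily mean, the median gene of the 8 stood at 1.07, 2.20, 1.59, 0.600, 0.324, 0.308, 0.606 and 0.948 times that mean from ZT 0 to ZT 21. The median over all tested genes stayed between 0.908 and 1.03 at these time points. All 8 genes were above their mean at ZT 3 and at ZT 6, and all 8 were below it at ZT 12, ZT 15 and ZT 18. Before scaling, RPE1 was below its mean at ZT 6 (0.956), RPI1 was above its mean at ZT 18 (1.04), and TPI1 was above its mean at ZT 12, ZT 15 and ZT 18 (1.07, 1.11 and 1.04). GAP3, PRK1, FBP1 and SEBP1 encode known targets of thioredoxin or CP12, and their median relative level at ZT 15 was 0.180, against 0.643 for TPI1, TRK1, RPI1 and RPE1. At ZT 9 the same medians were 0.622 for the 4 targets and 0.466 for the other 4. The groups overlapped at ZT 15, where RPE1 (0.243) was below FBP1 (0.373). With 4 genes a side these medians are a description.

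Whether the levels followed a daily wave was asked with a 24-hr cosine fitted to log2(FPKM + 1) in limma, with p-values adjusted by Benjamini-Hochberg over the 12153 genes tested. The wave was called for 7 of the 8 genes, and for 82.4% of all tested genes, so that being called sets the 8 little apart. The amplitude, the height of the wave above its midline on the log2 scale, had a median of 1.46 over the 8 genes and of 0.46 over all tested genes. RPE1 had an amplitude of 2.07 ± 0.25, SEBP1 1.82 ± 0.12, GAP3 1.77 ± 0.15, PRK1 1.66 ± 0.13, FBP1 1.27 ± 0.11 and TRK1 0.81 ± 0.08 (SE, n = 16 libraries), with adjusted p from limma between 1.4e-08 and 6.4e-06. The fit takes the 16 libraries as independent, although cultures of the same time point share what the cosine leaves unfitted. The SE and p of the waves, and the SE of the fitted peaks, can therefore be too small. TPI1 had a small wave of 0.27 ± 0.07 (limma, adjusted p = 0.0109), which was not called in replicate B alone (0.295) or in replicate A alone (0.213).

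RPI1 differed strongly among the 8 time points, but a single wave described it poorly. Its amplitude was 0.64 ± 0.25 (SE; limma, adjusted p = 0.0719), and the wave took up 30.0% of the variance of its log2 values, against 55.2% for TPI1 and between 81.8% and 94.7% for the other 6. With a 12-hr wave beside the 24-hr one, 60.4% of the variance of RPI1 was taken up. Without the culture A or the culture B library at ZT 0, where RPI1 dips, the 24-hr wave passed at adjusted p = 0.0163 and 0.0208. A test for any difference among the 8 time points (limma) called all 8 genes, as it did 99.2% of all tested genes.

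The fitted peaks of 7 of the 8 genes lay in the first part of the day, from ZT 0 to ZT 6, which is 87.5% with RPI1 counted, against 26.3% of the 10008 genes called. They came in the order RPE1 (ZT 0.13 ± 0.46 hr), RPI1 (0.95 ± 1.48 hr), TRK1 (1.33 ± 0.36 hr), FBP1 (2.12 ± 0.33 hr), SEBP1 (2.83 ± 0.24 hr), PRK1 (3.64 ± 0.30 hr) and GAP3 (3.69 ± 0.33 hr), each with its SE. TPI1 came last, at ZT 7.72 ± 1.04 hr. With FPKM as deposited the fitted peak of TPI1 was ZT 11.6 ± 1.14 hr, and those of RPI1 and RPE1 fell before dawn, at ZT 23.55 ± 1.53 hr and 23.7 ± 0.42 hr. The peaks of GAP3 and PRK1 were closer together than their SE. A fitted peak is the center of a smooth wave, and that of RPE1 fell at dawn between its 2 high time points, ZT 21 and ZT 3, although RPE1 was lower at ZT 0 itself.

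**Figure D3:**
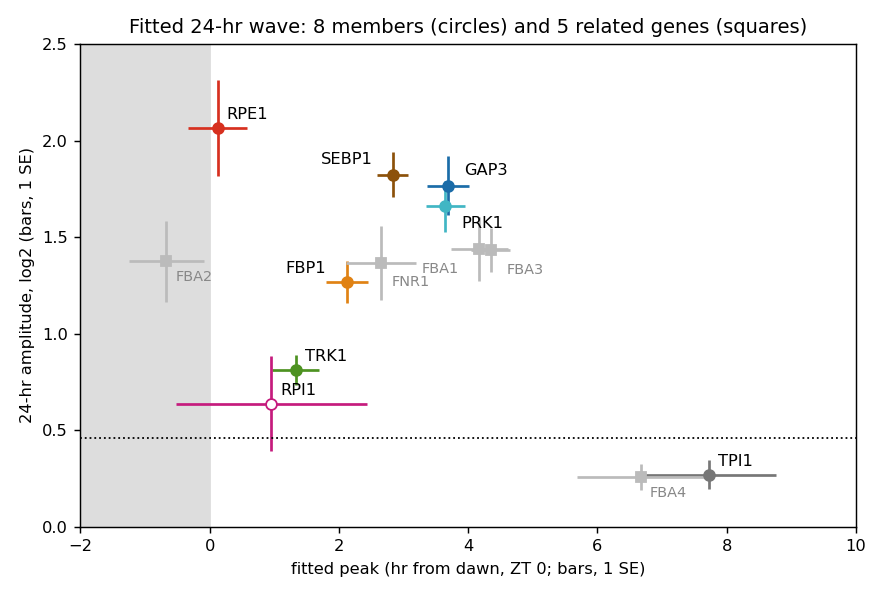
Fitted 24-hr amplitude on the log2 scale (y axis) against the fitted peak in hours from dawn (x axis; gray, before dawn), with 1 SE in each direction, for the 8 genes (circles, open where the wave was not called) and for FBA1 to FBA4 and FNR1 (gray squares). The dotted line is the median amplitude of all tested genes, 0.46, and TPI1 and FBA4 are the ones below it.

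A cyclic score, the 24-hr component of averaged power spectra, was built after the description in the study's methods, with cultures A and B as consecutive days. Its windows and its null of random orders were set here and were not those of the study, so its p-values and calls are not the study's. It was 1 for 7 of the genes and 0.996 for RPI1, and all 8 passed p under 0.02 (0.0156 for the 7, 0.0166 for RPI1, from values in random order), as did 64.8% of the 17114 models. The score of RPI1 was 0.726 with FPKM as deposited and 0.809 on the log2 scale, and RPI1 was not called in either. Its p was 0.165 and 0.103, from a permutation test against random orders pooled over genes.

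When in the day each transcript changed was tested between neighboring time points with limma, later minus earlier, adjusted by Benjamini-Hochberg over all tested genes. The differences are on the log2(FPKM + 1) scale with their SE. Without the scaling to a common percentile, the median difference of all genes shifted by -0.24 between ZT 0 and ZT 3, by 0.24 between ZT 6 and ZT 9 and by 0.10 between ZT 9 and ZT 12, and small differences in these intervals turn on it.

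Within 3 hr of lights on, 7 of the 8 genes rose, SEBP1 not so with FPKM as deposited. Of all tested genes 71.4% changed, 32.6% upward and 38.8% downward (20.9% and 55.3% with FPKM as deposited). RPI1 rose most, with 364 ± 8.70 FPKM at ZT 3, against 86.4 ± 3.97 FPKM at ZT 0 (log2 difference 2.06 ± 0.08, adjusted p = 1.4e-11). GAP3 followed with 1.52 ± 0.11, PRK1 with 1.39 ± 0.07, RPE1 with 1.07 ± 0.11, TPI1 with 0.72 ± 0.07 and FBP1 with 0.70 ± 0.07 (0.41 and 0.39 as deposited, both still called). For each of these both cultures at ZT 3 stood above both at ZT 0. SEBP1 rose by 0.30 ± 0.08 (adjusted p = 0.00506), but the difference was -0.01 with FPKM as deposited. TRK1 showed -0.06 ± 0.07 (adjusted p = 0.518); it was -0.37 (adjusted p = 0.000144) as deposited and 0.02 with scaling to the median.

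Between ZT 3 and ZT 6 the genes parted, and 4 of the 8 changed, as did 69.7% of tested genes. SEBP1 rose by 0.38 ± 0.08, beside 33.7% of tested genes that rose. RPE1 (-1.17 ± 0.11), RPI1 (-0.85 ± 0.08) and FBP1 (-0.18 ± 0.07) fell, beside 36.0% of tested genes that fell. For RPE1 this was 93.0 ± 0.106 FPKM at ZT 6, against 210 ± 4.76 FPKM at ZT 3, with no overlap between cultures. The call for FBP1 (adjusted p = 0.0383) was lost without culture B at ZT 3 (0.271), without culture A or B at ZT 6 (0.0766 and 0.126), without culture A at ZT 18 (0.05002) and with scaling to the median (0.208). GAP3 (0.24 ± 0.11), TPI1 (0.14 ± 0.07), PRK1 (0.09 ± 0.07) and TRK1 (-0.12 ± 0.07) did not pass, with adjusted p from 0.0694 to 0.260. On FPKM as deposited TRK1 passed as lower (-0.22, adjusted p = 0.00775), FBP1 was at -0.28 (0.00202), and PRK1 was at -0.02. GAP3 passed without either culture at ZT 9 (0.0405 for each) or at ZT 12 (0.0442 for each) and with scaling to the median (0.0360), and TPI1 passed without culture B at ZT 6 (0.0383) and with scaling to the median (0.0184).

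Between ZT 6 and ZT 9, still in light, all 8 genes fell, TPI1 not so with FPKM as deposited. Of all tested genes 63.4% changed, 28.8% downward and 34.6% upward. With FPKM as deposited, 54.6% of genes rose and 15.8% fell, and with scaling to the median 28.4% rose and 36.2% fell. The difference was -3.54 ± 0.11 for RPE1, -2.25 ± 0.11 for GAP3, -2.01 ± 0.08 for RPI1, -1.895 ± 0.08 for SEBP1, -1.80 ± 0.07 for PRK1, -1.62 ± 0.07 for FBP1 and -1.18 ± 0.07 for TRK1, with adjusted p from 5.5e-12 to 3.9e-09. Each of these 7 had both cultures at ZT 9 below both at ZT 6. RPE1 reached 7.10 ± 0.667 FPKM at ZT 9, against 93.0 ± 0.106 FPKM at ZT 6, and the steepest changes of the day for RPE1, GAP3, SEBP1, PRK1, FBP1 and TRK1 all fell in this interval. TPI1 fell by 0.29 ± 0.07 (adjusted p = 0.00148), and its difference was 0.03 with FPKM as deposited.

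In the last 3 hr of light 7 of the 8 genes changed, as did 71.3% of tested genes. SEBP1 (-1.54 ± 0.08), PRK1 (-1.05 ± 0.07), GAP3 (-0.94 ± 0.11), FBP1 (-0.88 ± 0.07) and TRK1 (-0.29 ± 0.07) fell, beside 42.8% of tested genes that fell. RPI1 and RPE1 went the other way, beside 28.6% of tested genes that rose. RPI1 had 99.0 ± 12.7 FPKM at ZT 12, against 49.0 ± 1.83 FPKM at ZT 9 (0.99 ± 0.08, adjusted p = 3.7e-08). RPE1 had 12.6 ± 2.32 FPKM at ZT 12, against 7.10 ± 0.667 FPKM at ZT 9 (0.74 ± 0.11, adjusted p = 1.8e-05). TPI1 showed -0.13 ± 0.07 (adjusted p = 0.104), and the call for TRK1 was lost with FPKM as deposited (0.0526).

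In the first 3 hr of darkness 6 of the 8 genes changed, as did 66.1% of tested genes. GAP3 (-0.77 ± 0.11), PRK1 (-0.88 ± 0.07) and SEBP1 (-0.30 ± 0.08) fell further, beside 31.9% of tested genes. RPE1 (0.60 ± 0.11), TRK1 (0.40 ± 0.07) and FBP1 (0.27 ± 0.07) rose, beside 34.2% of tested genes. The rise of FBP1 was lost without culture B at ZT 12 (adjusted p = 0.0619). TPI1 and RPI1 showed -0.03 ± 0.07 and -0.04 ± 0.08 (adjusted p = 0.735 and 0.642).

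From ZT 15 to ZT 18, deep in the night, 7 of the 8 genes rose, in an interval where 9.25% of tested genes rose and 8.89% fell. The rises were 1.33 ± 0.11 for RPE1, 1.005 ± 0.07 for PRK1, 0.94 ± 0.08 for SEBP1, 0.84 ± 0.11 for GAP3, 0.63 ± 0.07 for FBP1 and 0.48 ± 0.08 for RPI1, with adjusted p from 1.9e-07 to 0.000675. PRK1 had 47.5 ± 0.724 FPKM at ZT 18, against 23.2 ± 0.861 FPKM at ZT 15, and in all 6 genes both cultures at ZT 18 were above both at ZT 15. TRK1 rose by 0.25 ± 0.07 (adjusted p = 0.0282), a call that was lost without culture A or B at ZT 15 (0.0692 and 0.141) or at ZT 18 (0.116 and 0.130). TPI1 showed -0.08 ± 0.07 (adjusted p = 0.479).

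From ZT 18 to ZT 21 the same 7 genes rose, against 25.0% of tested genes that rose and 20.2% that fell (18.1% and 27.3% with FPKM as deposited). RPE1 rose by 1.54 ± 0.11, to 149 ± 9.95 FPKM at ZT 21, against 50.5 ± 4.03 FPKM at ZT 18. SEBP1 rose by 1.26 ± 0.08, FBP1 by 0.87 ± 0.07, GAP3 by 0.81 ± 0.11, PRK1 by 0.76 ± 0.07, TRK1 by 0.43 ± 0.07 and RPI1 by 0.41 ± 0.08. The adjusted p of these 7 ran from 9.9e-08 to 0.000625. TPI1 showed -0.11 ± 0.07 (adjusted p = 0.220), and with FPKM as deposited it was lower, at -0.21 (adjusted p = 0.0160).

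From ZT 21 to ZT 0, the last and the first time points sampled, the genes separated again. This interval joins the end of the series to its start, and an effect of culture age on it was not tested. All 8 changed, as did 67.1% of tested genes (33.0% rose and 34.2% fell). SEBP1 (0.86 ± 0.08), TRK1 (0.57 ± 0.07), GAP3 (0.55 ± 0.11), PRK1 (0.49 ± 0.07) and FBP1 (0.22 ± 0.07) were higher at ZT 0 than at ZT 21. RPI1 fell by 1.04 ± 0.08 (adjusted p = 3.0e-08), to 86.4 ± 3.97 FPKM at ZT 0, against 179 ± 0.681 FPKM at ZT 21. RPE1 fell by 0.58 ± 0.11 (adjusted p = 0.000229), to 99.6 ± 1.70 FPKM at ZT 0, against 149 ± 9.95 FPKM at ZT 21, and TPI1 fell by 0.23 ± 0.07 (adjusted p = 0.00622). For all 3 both cultures at ZT 0 were below both at ZT 21, and all 3 were higher at ZT 3 than at ZT 0. The call for FBP1 (adjusted p = 0.0159) was lost without either culture at ZT 0 (0.0623 without A, 0.0583 without B) or culture A at ZT 21 (0.110).

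**Figure D4:**
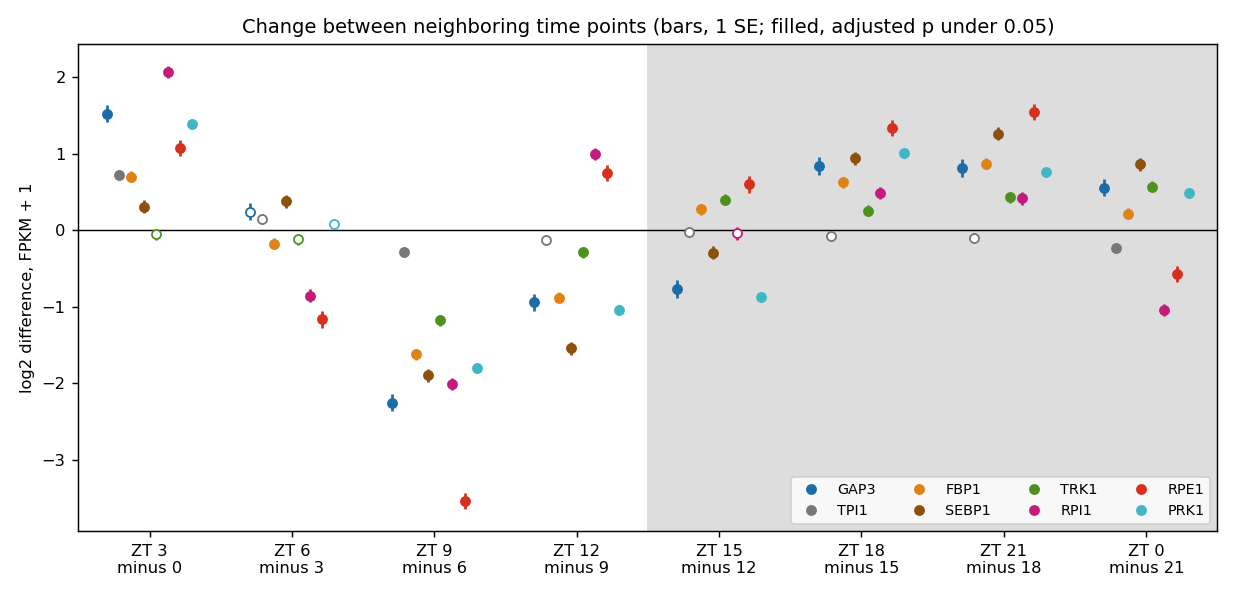
Log2 difference in FPKM + 1 between neighboring time points (y axis, later minus earlier, bars of 1 SE) for each gene in its color, with filled points where the adjusted p was under 0.05 and the intervals that end in darkness in gray. Every gene lies below 0 from ZT 6 to ZT 9 (TPI1 at 0.03 with FPKM as deposited), 7 genes lie above 0 from ZT 15 to ZT 21, and RPI1 and RPE1 lie opposite to GAP3, SEBP1 and PRK1 from ZT 9 to ZT 12 and from ZT 21 to ZT 0.

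The light period (ZT 3 to ZT 12) was compared with the dark period (ZT 15 to ZT 0) in the same limma fit. All 8 genes differed, 6 higher and 2 lower in light, with directions that turned under some settings for RPI1, TRK1 and RPE1, where 84.0% of tested genes differed, 44.5% higher and 39.5% lower (28% and 54.7% with FPKM as deposited, which shifted the median gene by -0.19). GAP3 ranged from 110.5 to 1195 FPKM in the 8 light libraries, with a median of 602, and from 68.5 to 350.5 FPKM in the 8 dark libraries, with a median of 178. PRK1 ranged from 41.7 to 329 FPKM in light, with a median of 196, and from 22.6 to 116 FPKM in the dark, with a median of 64.5. The ranges overlapped for both. Without ZT 12 and ZT 0 those of GAP3 still overlapped, with a lowest light value of 213 FPKM and a highest dark value of 233 FPKM. The log2 difference was 1.37 ± 0.06 for GAP3, 1.29 ± 0.03 for PRK1, 0.76 ± 0.04 for SEBP1 and 0.40 ± 0.03 for TPI1, and with FPKM as deposited that of TPI1 was 0.15 ± 0.03 (adjusted p = 0.000491).

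For the other 4 the call or the direction between light and dark depended on the transition samples or on the scaling. FBP1 was higher in light by 0.28 ± 0.04 and RPI1 by 0.21 ± 0.04, but with FPKM as deposited the differences were 0.03 (adjusted p = 0.378) and -0.04 (0.324). RPE1 ranged from 6.63 to 214 FPKM in light and from 18.1 to 156 FPKM in the dark, and was lower in light (-0.72 ± 0.05 on the log2 scale). Without ZT 12 and ZT 0 its difference was 0.01 ± 0.06 (adjusted p = 0.902). TRK1 was lower in light (-0.10 ± 0.04, adjusted p = 0.0167), a call lost with scaling to the median (-0.03, adjusted p = 0.507) and without culture B at ZT 9 (0.0503), and without ZT 12 and ZT 0 it was higher by 0.41 ± 0.04. As deposited, TRK1 was lower in light by more (-0.36 ± 0.03). Without these time points PRK1 (88.7 to 329 FPKM in light, 22.6 to 81.4 FPKM in the dark) and TPI1 (137 to 177.5 FPKM in light, 110.0 to 129.7 FPKM in the dark) had no overlap between light and dark libraries. With FPKM as deposited and without these time points, PRK1 still had none, but TPI1 overlapped, with 163.7 to 176 FPKM in light and 144 to 187 FPKM in the dark (difference 0.04, adjusted p = 0.346). On that scale TRK1 was at 0.06 (0.165), while RPI1 (-0.13, adjusted p = 0.0141) and RPE1 (-0.34, adjusted p = 6.4e-05) were lower in light, so that 6 of the 8 genes were called, 4 higher and 2 lower, against 7 called and all higher with the scaling.

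The end of the day was then set against the end of the night (ZT 12 minus ZT 0, limma). All 8 genes differed, as did 82.5% of tested genes. At ZT 12, 6 of the 8 were lower, against 43.8% of tested genes, and 2 were higher, against 38.8%. SEBP1 had 52.4 and 51.1 FPKM at ZT 12, against 350.4 and 360.4 FPKM at ZT 0 (-2.76 ± 0.08), and RPE1 had 14.3 and 10.99 FPKM, against 98.4 and 100.9 FPKM (-2.90 ± 0.11). The difference was -1.98 ± 0.07 for FBP1, -1.65 ± 0.07 for TRK1, -1.43 ± 0.11 for GAP3 and -1.38 ± 0.07 for PRK1. TPI1 was higher at ZT 12 by 0.45 ± 0.07. RPI1 was higher by 0.19 ± 0.08 (adjusted p = 0.0392), which was lost without culture A at ZT 0 (0.204), culture A at ZT 12 (0.504), or culture A or B at ZT 18 (0.0508 each), and was 0.32 without culture B at ZT 12.

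Ratios of 2 genes within a library do not depend on the scaling between libraries, and a 24-hr wave in a ratio means that the 2 daily courses differ. The wave of the log2 ratio was tested for all 28 pairs by a permutation test over the 16 libraries (100000 resamples, smallest possible p 1e-05), adjusted over the 28 pairs, and 26 pairs passed. One that did not was GAP3 over PRK1. This ratio lay between 2.40 and 3.64 in all 16 libraries, while both transcripts varied more than 13-fold, and its wave had an amplitude of 0.0952 (adjusted p = 0.244). Without culture B at ZT 9, the library with the lowest ratio, the amplitude was 0.126 and passed (adjusted p = 0.0272). The other was TRK1 over RPI1 (amplitude 0.19, adjusted p = 0.767), whose mean ratio still spanned 2.13 on the log2 scale, with 1.56 and 1.55 in cultures A and B at ZT 3 and 6.95 and 6.66 at ZT 0, without the shape of a single wave. The resamples moved libraries singly and did not keep the 2 cultures of a time point together. Where the cultures agree, p can thus be too small, also for a repeated course that is not a 24-hr wave. With culture B alone 14 pairs passed, and with culture A alone 15. SEBP1 over RPI1 (adjusted p = 0.00602 with both) was then at 0.1415 and 0.183, and FBP1 over RPI1 (0.0256 with both) at 0.234 and 0.265.

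**Figure D5:**
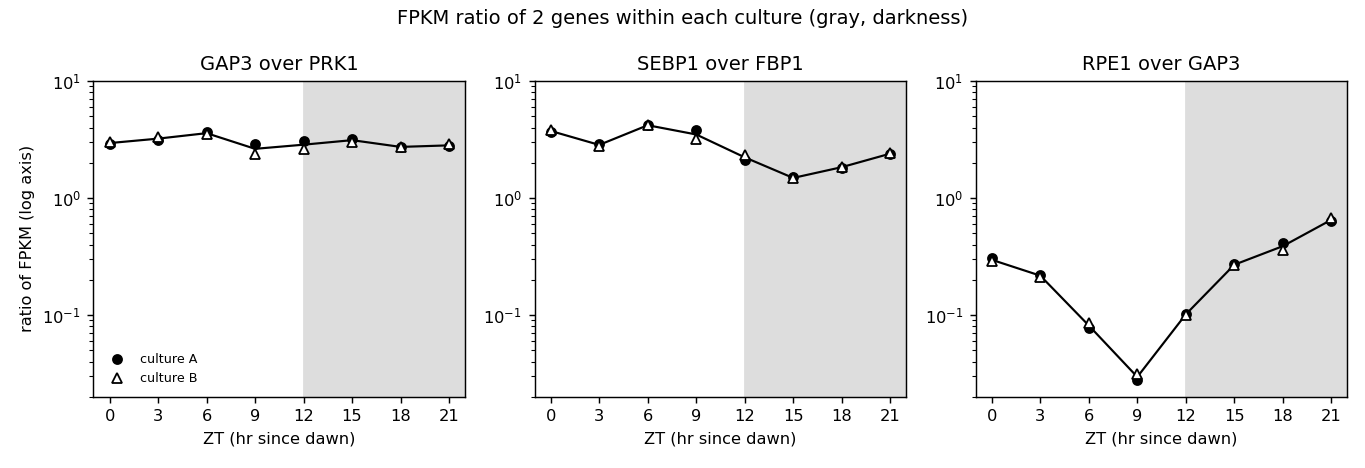
Ratio of FPKM within each library (y axis, log scale) against ZT in hours for GAP3 over PRK1, SEBP1 over FBP1 and RPE1 over GAP3, with culture A filled, culture B open, the line through the geometric mean and the dark period in gray. GAP3 over PRK1 stays between 2.40 and 3.64, SEBP1 over FBP1 falls to about 1.5 at ZT 15, and RPE1 over GAP3 runs from 0.0281 at ZT 9 to 0.670 at ZT 21.

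RPE1 over GAP3 was 0.0281 and 0.0311 in cultures A and B at ZT 9 and 0.633 and 0.670 at ZT 21, a range of 4.46 on the log2 scale. The 2 enzymes of ribulose phosphate formation also differed from each other: RPE1 over RPI1 was 0.132 and 0.122 at ZT 12 and 1.18 and 1.13 at ZT 0. The bisphosphatases stayed closer, with SEBP1 over FBP1 at 4.17 and 4.21 at ZT 6 and 1.5 and 1.47 at ZT 15 (amplitude 0.62, adjusted p = 0.000214). In the same permutation test this wave did not pass with culture B alone (adjusted p = 0.0525) or culture A alone (0.0614).

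As a description over the 16 libraries, which share 8 time points, the Pearson correlation of log2(FPKM + 1) was highest for GAP3 with PRK1 (0.995), followed by FBP1 with SEBP1 (0.961). The median over the 28 pairs was 0.685, with 7 pairs above 0.9 and 1 negative, TPI1 with RPE1 (-0.036). RPI1 was most like RPE1 (0.824), RPE1 most like TRK1 (0.893), and TRK1 most like FBP1 (0.946). TPI1 was the least like of the 8 for every other gene. Over all tested genes, the profiles most like the mean of the 8 were those of Cre12.g494850 (0.993, mean 34.1 FPKM, highest at ZT 3) and FNR1 (0.991), with the 8 genes themselves left aside.

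The other genes of photosynthetic carbon metabolism named for this series were the aldolases FBA1 to FBA4, which join triose phosphates into the substrates of the bisphosphatases, and FNR1, ferredoxin-NADP reductase, which supplies the NADPH that the cycle uses. All 5 passed the 24-hr test, against 82.4% of tested genes. The study lists these 5, and PRK1, among its reference set of known cycling genes, so their passing says little. FBA3 was the most abundant, with 1777 ± 54.5 FPKM at ZT 6 and 185 ± 9.28 FPKM at ZT 15, and had an amplitude of 1.43 ± 0.11 with a peak at ZT 4.35 ± 0.30 hr. FBA1 had an amplitude of 1.44 ± 0.17 and a peak at ZT 4.17 ± 0.44 hr, and FNR1 had 1.37 ± 0.19 and ZT 2.65 ± 0.54 hr, within the range of the 8 genes. FBA2 peaked before dawn (ZT 23.3 ± 0.58 hr). Like RPE1 it was highest at ZT 3 (21.2 ± 0.792 FPKM) and lowest at ZT 9 (0.518 ± 0.154 FPKM), though at a lower level. FBA4 had a small wave (0.26 ± 0.07) at 23 to 85 fragments per library, and it was not called with FPKM as deposited (0.16, adjusted p from limma 0.128).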

How the data were processed

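RNA was sequenced from 16 cultures of strain dw15.1, and the time point and replicate letter of each library came from the sample titles. At ZT 6 the deposited files carry other letters than the titles, and the titles were used. Replicates of 1 time point ran in separate lanes according to the methods of the study. The authors mapped reads with TopHat to genome version 4.3, allowing 1 hit per read, and made the deposited FPKM with Cufflinks; program versions are not given in the sources used here. Use of the strand in counting is likewise not given in the sources used here.

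Each library was multiplied by a factor that gave its 17114 gene models the same 75th percentile, after the methods of the study, with factors within 0.0109% of those in a deposited table of 50 genes. Factors ran from 0.687 to 1.01. Fragments per gene were recovered from the limits of Cufflinks, whose distance from a value is 2 times that value over the root of its fragment number, and 100% of values under 300 fragments came within 0.05 of a whole number. They cover counting error only. Depth ran from 5.87e+06 to 2.19e+07 fragments.

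Models in limma 3.58.1 (R 4.3.3) took log2(FPKM + 1), kept 12153 genes averaging 1 FPKM or more, used all 16 libraries and an intensity trend, and had Benjamini-Hochberg adjustment at 0.05. A fold change on this scale understates that of low genes. The cyclic score used 9 overlapping windows of 8 values. The number of windows was set here, with p from 10 random orders per gene pooled over genes, so that its cutoff and calls differ from those of the study. Ratios were tested by permutation of single libraries (100000 resamples). Scripts were tested on simulated data. The tests used scipy 1.17.1 and numpy 2.4.6, tables pandas 2.3.3, and plots matplotlib 3.10.9, under Python 3.11.15.

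Named genes are the 8 loci, the aldolases and FNR1 named for this series, and the 2 loci most like the mean of the 8. The 8 genes and the lists were chosen with earlier results of these data known. Gene symbols come from that choice of loci: all 8 loci are in RefSeq's gene table for assembly version 5.5, which holds no symbols for them, so other Calvin cycle genes were not named. Sequences were not used here.

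Alternatives tried were FPKM as deposited, scaling to the median, other pseudocounts and filters, no intensity trend, a replicate block, other thresholds and day orders for the score, and leaving out each library or replicate. No sample of another series was among the columns.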

Additional observations from a re-analysis of the deposited data

How the results depend on the processing

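Of 2788 values for single genes or pairs under the alternatives, 2712 kept their direction and their side of the threshold, as did 300 of 303 counts within 1.5 times. Many alternatives leave out a library that does not enter the difference between time points, whose size then cannot move. The test for any difference has no direction to turn. Part of this agreement was therefore fixed in advance. Directions that turned with FPKM as deposited were RPI1 in light minus dark (-0.0428), SEBP1 at ZT 3 minus ZT 0 (-0.0098), PRK1 at ZT 6 minus ZT 3 (-0.0187), TPI1 at ZT 9 minus ZT 6 (0.0252), at ZT 12 minus ZT 9 (0.0119) and at ZT 15 minus ZT 12 (0.0547), and RPI1 at ZT 15 minus ZT 12 (0.0376). The last interval also turned without culture A at ZT 12 or culture B at ZT 15, and over all libraries left out it ran between -0.0832 and 0.0283 for TPI1 and between -0.174 and 0.0855 for RPI1. Scaling to the median turned TRK1 at ZT 3 minus ZT 0 (0.0206). Leaving out ZT 12 and ZT 0 turned light minus dark for TRK1 (0.409) and RPE1 (0.00829). The cyclic score called 0 genes at a threshold of 0.01, since the smallest p it gave was 0.0156. The cause of the other turns was not tested.

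Leaving out libraries or a replicate gave between 6 and 8 genes with a 24-hr wave, 7 to 8 for light minus dark, 7 to 8 for ZT 12 minus ZT 0, and between 14 and 27 pairs with a wave in their ratio. Over all genes the wave was called for 5492 without replicate A and 5788 without replicate B, against 10008 with both. The replicate letters were not used to pair the cultures. Deviations of same-lettered cultures from the time point means correlated between -0.273 and 0.335 over 28 pairs of time points. The median was -0.03, and 10 of them were above 0.1. Correlations of either sign do not decide whether same-lettered cultures share a batch. With a replicate block, 7 of the 8 genes had a 24-hr wave, 9800 of all genes did, and no call on the 8 genes changed. With 2 cultures per time point no library could be tested for standing apart. The p-values of differences between time points measure the spread between these cultures, those of a 24-hr wave also hold what a cosine leaves unfitted, and those of ratios and of the cyclic score come from values in random order.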
